A study of Mus musculus with 45 samples.

Results

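The comparison described here set mouse gliomas carrying the receptor mutant Pdgfra V544ins against mouse gliomas carrying EGFRvIII, on arrays whose title numbers lie in one range. The V544ins arrays were those numbered 49, 50, 51, 52, 61 and 62 (6 arrays, genotype Pdgfra V544ins;p53null), and the EGFRvIII arrays were those numbered 41 to 48 (8 arrays, genotype EGFRvIII;p53null). Together they made up 14 of the 45 arrays. All 14 carried the p53-null background, the strain label CD-1 nude, the disease model label Glioblastoma and the source label mouse brain. The series describes retroviral constructs of wild-type or mutant PDGFRA used with p53-null primary mouse astrocytes, and does not state how EGFRvIII was introduced. Total RNA, labelled by an Affymetrix 3' protocol from 100 ng, was hybridised to expression arrays. For context, 3 further V544ins arrays numbered 6, 8 and 10 and 6 arrays of Pdgfra E10 del.v2;p53null numbered 56 to 59, 63 and 64, with the same strain, disease model and source labels, were used as well.

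The labels do not say whether the arrays of a group came from separate animals, so each p-value reflects only how these samples spread, which may be technical. The genotype and the title number cannot be told apart, since each title number belongs to 1 genotype only. The labels name neither the promoter of the constructs nor how many astrocyte cultures or animals each group came from. CD-1 nude mice lack a thymus, and the lymphocyte markers were near the bottom of the scale, with list means of 3.24 to 3.32 in V544ins and 3.25 to 3.68 in EGFRvIII on the log2 scale.

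PDGFRA is a receptor tyrosine kinase that is switched on by PDGF ligands and that marks oligodendrocyte progenitors in the brain. V544ins is an insertion in the membrane-spanning segment of that receptor. EGFRvIII is a truncated EGF receptor, known from human glioblastoma, that lacks part of the ligand-binding domain and signals without ligand. Both receptor families feed the RAS-ERK and PI3K-AKT pathways, whose output includes feedback inhibitors of the Sprouty and dual-specificity phosphatase families.

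Before any comparison, several arrays stood apart from the rest of their group. A principal component analysis gave 37.8% of the variance to the first component, on which EGFRvIII replicates 4, 5 and 6 scored -61.7, -98.3 and -56.5, while the other EGFRvIII arrays scored between 4.94 and 33.2. On the second component, with 19.6% of the variance, V544ins replicates 1 and 2 (numbers 62 and 61) scored 53.9 and 58.4, while the other 4 V544ins arrays scored between -6.13 and 7.02. EGFRvIII replicate 1 scored -58.3 on that component. The pairwise correlation over genes ranged from 0.678 to 0.983 among the 14 arrays. Array medians were 4.68 to 4.81 in V544ins and 4.66 to 4.82 in EGFRvIII, and the 3' minus 5' signal of Actb, a measure of RNA integrity, was 0.45 to 0.63 in V544ins and 0.48 to 0.87 in EGFRvIII on the log2 scale. No array was left out of the comparison for these reasons. The leading results are also given without EGFRvIII replicates 4, 5 and 6.

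**Figure D1:**
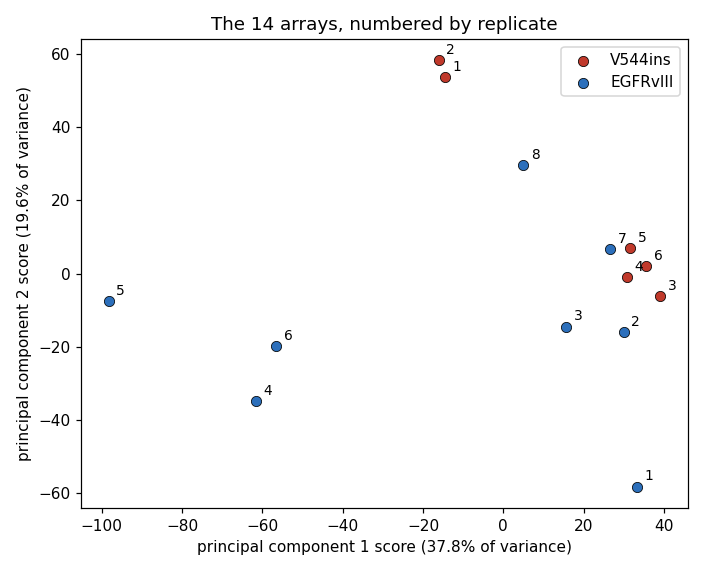
Scores of the 6 V544ins and 8 EGFRvIII arrays on the first principal component (x axis, 37.8% of variance) and the second (y axis, 19.6% of variance), each point labelled by its replicate number. EGFRvIII replicates 4, 5 and 6 lie far to the left, and V544ins replicates 1 and 2 lie at the top, at scores of 53.9 and 58.4.

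A small set of genes differed between the genotypes. Of 10598 genes tested, 28 (0.264%) passed an adjusted p of 0.05 in limma's moderated test with Benjamini-Hochberg adjustment, which is the test behind every adjusted p given here. Of these, 21 (0.198%) were higher in V544ins and 7 (0.0661%) were lower, and 17 of the 28 differed by at least 2-fold. Without adjustment, 1584 genes (14.9%) had a p under 0.05. The arrays of the groups did not overlap at all for 58 genes higher in V544ins (0.547%) and 35 genes lower (0.33%). Over all genes tested the median difference was 0.02 on the log2 scale. The calls depended on single arrays: with each of V544ins replicates 4, 5 and 6 or EGFRvIII replicate 3 left out in turn, limma called 0 genes, with 1233 to 1521 at an unadjusted p under 0.05.

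Capn6, a member of the calpain family that lacks protease activity, rose most. Its log2 signal in V544ins ranged from 10.26 to 11.18 with a median of 10.71, and in EGFRvIII it ranged from 3.95 to 9.26 with a median of 5.86. The groups did not overlap, and the difference was 4.46 ± 0.72 (SE), or 22-fold, at an adjusted p of 0.0295. EGFRvIII replicates 8 and 1, at 9.26 and 8.26, were the nearest to V544ins, and replicate 5 was the lowest. Without EGFRvIII replicates 4, 5 and 6 the difference was 3.41 with an adjusted p of 0.047. A second Capn6 probe set gave 2.94 in the same direction. Capn6 lies on the X chromosome, as does Xist, whose values are given further on.

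The promoter of Capn6 is shown because this gene had the largest difference. The window, chrX:143827363-143827662 on the minus strand of GRCm38.p6, runs from 250 bases before to 50 bases after the RefSeq start. Capitals mark the AP-1 motif TGANTCA (N is any base) and the GC box GGGCGG, both searched on both strands, with overlapping matches counted.
Capn6: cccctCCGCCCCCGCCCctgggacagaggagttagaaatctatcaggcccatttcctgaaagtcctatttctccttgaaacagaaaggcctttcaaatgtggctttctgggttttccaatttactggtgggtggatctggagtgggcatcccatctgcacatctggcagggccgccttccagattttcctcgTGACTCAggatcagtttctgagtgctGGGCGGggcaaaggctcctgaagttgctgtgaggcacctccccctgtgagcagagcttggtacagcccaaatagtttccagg
This window held 1 AP-1 motif and 3 GC boxes. AP-1 was found in 1 of 26 windows of called genes (3.85%), against 5.06% of the 11168 windows of tested genes and 7.81% of all 32851 windows. The GC box was found in 20 of 26 windows of called genes (76.9%), against 62.7% of the windows of tested genes and 35.7% of all windows. RefSeq windows were matched for 21 of the 28 called genes.

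Tubb4a, a beta-tubulin abundant in the nervous system, ranged from 9.67 to 11.22 (median 10.20) in V544ins and from 5.4 to 8.82 (median 7.90) in EGFRvIII. Its difference was 2.77 ± 0.51 (adjusted p = 0.0427), and no EGFRvIII array reached the lowest V544ins array. Tubb4a is also abundant in oligodendrocytes, and the values of myelin markers are given further on; their part in the Tubb4a result was not tested. Trpc4, a calcium-permeable cation channel, ranged from 6.62 to 8.28 (median 7.17) in V544ins and from 3.80 to 6.31 (median 4.68) in EGFRvIII, a difference of 2.42 ± 0.41 (adjusted p = 0.0339). EGFRvIII replicates 4 and 1, at 6.31 and 6.22, lay closest to the V544ins arrays. Rab7b, a small GTPase of endosome and lysosome traffic, ranged from 7.97 to 8.97 (median 8.24) in V544ins and from 4.96 to 7.52 (median 6.32) in EGFRvIII, a difference of 2.07 ± 0.34 (adjusted p = 0.0295). Ntng2, the axon guidance protein netrin-G2, was lower on the scale: 5.17 to 6.02 in V544ins and 3.95 to 5.18 in EGFRvIII, with a difference of 1.11 ± 0.21 (adjusted p = 0.046). For Ntng2 the groups touched, the highest EGFRvIII array lying just above the lowest V544ins array.

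Bche encodes butyrylcholinesterase, a circulating esterase, and ranged from 6.66 to 8.81 (median 7.39) in V544ins and from 3.56 to 6.87 (median 4.49) in EGFRvIII. Its difference of 2.69 ± 0.51 (adjusted p = 0.0449) was accompanied by a slight overlap of the groups. Pisd-ps3, a pseudogene of the phosphatidylserine decarboxylase gene Pisd, ranged from 9.06 to 10.15 (median 9.89) in V544ins and from 5.61 to 9.28 (median 6.42) in EGFRvIII, a difference of 3.01 ± 0.47 (adjusted p = 0.0292). Because near-identical copies of Pisd exist, the gene behind the Pisd-ps3 signal is uncertain. Agpat1, an acyltransferase of phospholipid synthesis, rose by 0.92 ± 0.16 (adjusted p = 0.0339), with 7.05 to 7.77 in V544ins and 6.05 to 6.96 in EGFRvIII.

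Rbm28, a nucleolar RNA-binding protein, ranged from 8.48 to 8.93 (median 8.73) in V544ins and from 7.33 to 8.04 (median 7.65) in EGFRvIII, a difference of 1.03 ± 0.14 (adjusted p = 0.0173). Prag1, a pseudokinase scaffold, ranged from 9.02 to 9.39 (median 9.23) in V544ins and from 7.40 to 8.56 (median 8.10) in EGFRvIII, a difference of 1.22 ± 0.18 (adjusted p = 0.0173). The spread within V544ins was narrow for both, and neither group overlapped the other. The zinc finger genes Zfp994 and Zfp40 each rose by 1.53, with adjusted p-values of 0.0173 and 0.0339. Zfp994 ranged from 6 to 6.54 in V544ins and from 4.09 to 5.67 in EGFRvIII. Pcbp4, a poly(rC)-binding protein, rose by 0.86 ± 0.16 (adjusted p = 0.0463), and all 3 of its probe sets moved the same way. A second Prag1 probe set, near the bottom of the scale, differed by -0.03. Map10, a microtubule-associated protein, rose by 1.09 ± 0.19 (adjusted p = 0.0345), and Amotl2, an angiomotin-like protein of cell junctions, by 0.92 ± 0.17 (adjusted p = 0.0431).

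Of the 7 genes that fell in V544ins, the largest difference was that of Sema3a, a secreted semaphorin that repels growing axons. Sema3a ranged from 3.78 to 5.96 (median 4.90) in V544ins and from 6.23 to 9.06 (median 7.02) in EGFRvIII. It fell by 2.42 ± 0.42 (adjusted p = 0.0339), and all 3 of its probe sets were lower in V544ins. Cpne8, a calcium-dependent membrane-binding copine, ranged from 3.80 to 5.91 (median 4.64) in V544ins and from 6.03 to 7.81 (median 6.96) in EGFRvIII, and fell by 2.13 ± 0.37 (adjusted p = 0.0339). Neither gene had overlapping groups. Sfmbt1, an MBT-domain protein of Polycomb-related complexes, fell by 0.88 ± 0.12 (adjusted p = 0.0173), with 6.01 to 6.51 in V544ins and 6.83 to 7.40 in EGFRvIII. Its second probe set differed by 0.19 in the opposite direction. The other genes that fell did so by less than 2-fold: Acbd4, an acyl-CoA-binding protein, fell by 0.89, Dnajc4, a J-domain co-chaperone, by 0.66, and Smug1, a uracil-DNA glycosylase of base excision repair, by 0.63, with adjusted p-values of 0.046, 0.038 and 0.038.

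A further 3 called genes carried clone names: 2700081O15Rik and 3110040N11Rik were higher by 1.48 and 0.99, and 4833420G17Rik was lower, with a difference of -0.84. In all, 16 of the 28 called genes had more than 1 probe set, and of their 23 additional probe sets 21 had the sign of the reported one and 2 the opposite sign. The genes called most often when each array was left out in turn were Prag1, Rbm28, Sfmbt1 and Zfp994, each in 10 of 14 such fits. Bche and 4833420G17Rik were called in 2 of 14. With EGFRvIII replicates 4, 5 and 6 left out together, limma called 16 of 10512 genes (0.152%), of which 7 were among the 28, Capn6, Tubb4a, Trpc4, Prag1, Rbm28, Agpat1 and Sfmbt1.

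**Figure D2:**
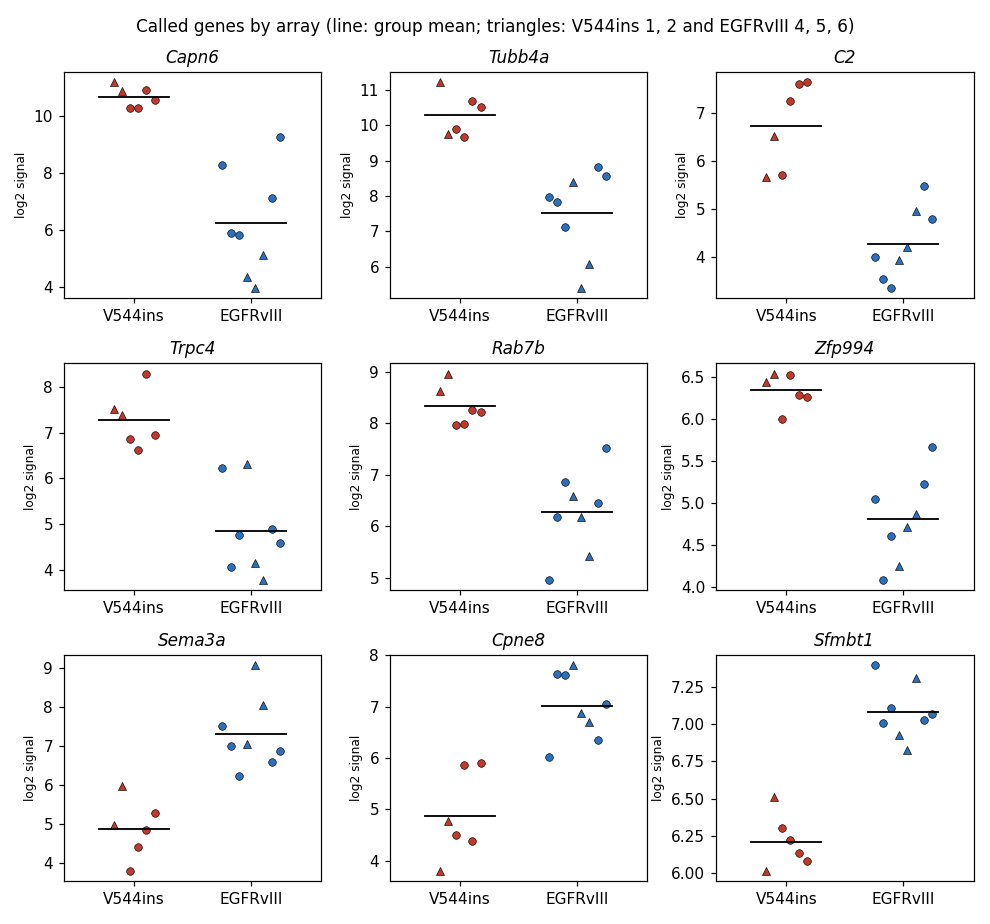
Log2 signal (y axes, a separate scale for each gene) of 9 called genes in the 6 V544ins arrays (left of each panel) and the 8 EGFRvIII arrays (right), 1 point an array, with the group mean as a line and triangles for V544ins replicates 1 and 2 and EGFRvIII replicates 4, 5 and 6. No V544ins array overlaps an EGFRvIII array for these genes, and EGFRvIII is spread widely for Capn6, between 3.95 and 9.26. Called genes whose groups overlapped, among them Pisd-ps3, Bche, Ntng2, Vps52 and Ehmt2, are not shown.

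Of the 28 called genes, 8 lay on chromosome 17, which held 509 of the tested genes (4.80%). On chromosome 17, 1.57% of tested genes were called and 9.82% had an unadjusted p under 0.01, against 5.04% of all tested genes. The median difference there was 0.14 on the log2 scale, and 67.2% of its genes had a higher mean in V544ins, against 52.6% of all tested genes. These genes were grouped by position after the calls had been seen, so no test is given. Single arrays stood out on chromosome 17: V544ins replicate 1 had a chromosome 17 median 0.47 above the all-array level, the other V544ins arrays were between -0.03 and 0.10, and EGFRvIII replicates 1 and 2 were at -0.27 and -0.22.

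Within chromosome 17, 5 of the 8 lay in the major histocompatibility region, from Vps52 to Ehmt2, a stretch of 33 tested genes. The ends of the stretch were placed at called genes, so the share called within it is partly set by that choice. Vps52, a subunit of the GARP tethering complex, rose by 0.98 ± 0.17 (adjusted p = 0.0339), with 5.78 to 6.68 in V544ins and 4.99 to 5.85 in EGFRvIII. C2, a protease of the complement cascade, ranged from 5.68 to 7.65 (median 6.89) in V544ins and from 3.35 to 5.49 (median 4.09) in EGFRvIII, and rose by 2.46 ± 0.41 (adjusted p = 0.0335). Its groups did not overlap, and the difference without EGFRvIII replicates 4, 5 and 6 was 2.51, at an adjusted p of 0.0837. Zbtb12, a BTB zinc finger gene next to C2 in the order of tested genes, ranged from 6.39 to 7.08 in V544ins and from 4.96 to 6.29 in EGFRvIII, and rose by 1.27 ± 0.20 (adjusted p = 0.0295). Ehmt2, which encodes the histone H3 methyltransferase G9a, rose by 0.82 ± 0.15 (adjusted p = 0.0449), with 8.78 to 9.74 in V544ins and 8.18 to 8.79 in EGFRvIII, a slight overlap. Agpat1, described above, was the fifth.

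The rest of the stretch was mixed. Its 28 genes that were not called had a median difference of 0.15, with 17 higher in V544ins and 3 at an unadjusted p under 0.01. Atf6b, an endoplasmic reticulum stress transcription factor between Agpat1 and C2, had means of 7.16 in V544ins and 6.20 in EGFRvIII, and its adjusted p was 0.0521. The antigen-presentation genes of the stretch did not pass: the immunoproteasome subunits Psmb8 and Psmb9 differed by 1.18 and 1.56 (adjusted p = 0.308 and 0.244), and the class II genes H2-Aa, H2-Ab1 and H2-Eb1 by -0.41, -0.49 and -1.70 (adjusted p = 0.826, 0.747 and 0.207). Without EGFRvIII replicates 4, 5 and 6 these class II differences were 0.49, 0.25 and -1.02. Cfb, the complement gene listed directly before C2, had means of 5.01 in V544ins and 5.05 in EGFRvIII. The remaining called genes of chromosome 17 were Zfp994, Zfp40 and Tubb4a, which lie outside the stretch.

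The promoters of Zbtb12 and Ehmt2 are shown as those of called genes that are neighbours in the order of tested genes. Capitals mark GC boxes, on either strand. Both windows are on the plus strand of GRCm38.p6, chr17:34894309-34894608 for Zbtb12 and chr17:34898224-34898523 for the first of 2 Ehmt2 windows, from RefSeq.
Zbtb12: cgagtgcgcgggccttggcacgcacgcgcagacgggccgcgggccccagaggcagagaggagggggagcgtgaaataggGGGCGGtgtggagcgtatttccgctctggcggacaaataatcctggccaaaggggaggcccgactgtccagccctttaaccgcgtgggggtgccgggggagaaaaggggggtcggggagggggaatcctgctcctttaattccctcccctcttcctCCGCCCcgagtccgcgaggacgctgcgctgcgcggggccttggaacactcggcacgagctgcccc
Ehmt2: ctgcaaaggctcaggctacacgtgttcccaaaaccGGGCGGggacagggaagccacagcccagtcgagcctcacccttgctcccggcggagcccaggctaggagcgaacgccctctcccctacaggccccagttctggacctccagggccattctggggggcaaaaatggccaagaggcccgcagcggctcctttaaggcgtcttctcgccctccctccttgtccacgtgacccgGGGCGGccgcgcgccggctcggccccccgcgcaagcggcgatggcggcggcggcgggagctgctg
Each window held 2 GC boxes and 0 AP-1 motifs.

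**Figure D3:**
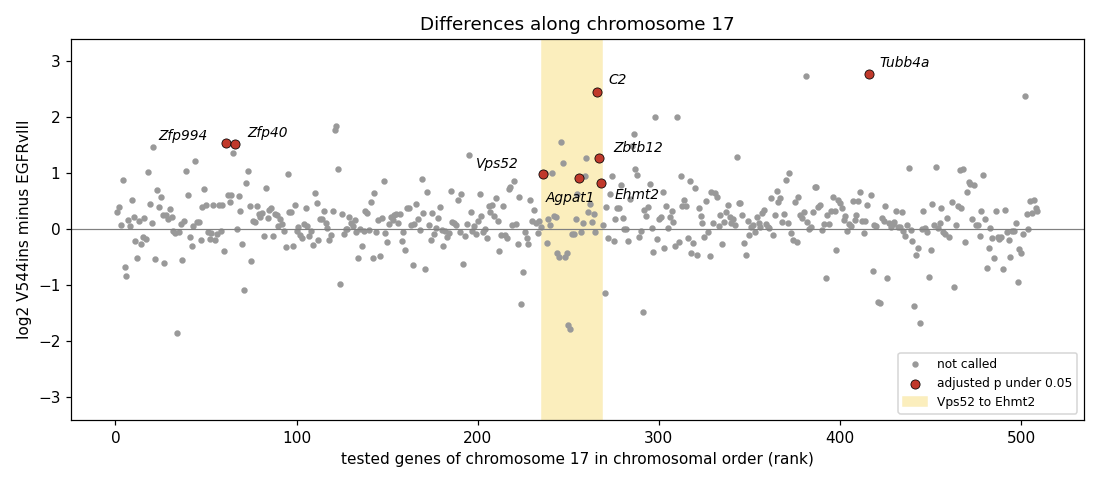
Difference in log2 signal, V544ins minus EGFRvIII (y axis), for the tested genes of chromosome 17 in chromosomal order (x axis, rank), with the 8 called genes in red and the stretch from Vps52 to Ehmt2 shaded. The called genes lie between 0.82 and 2.77, and 5 of the 8 fall in the shaded stretch, whose ends were placed at called genes, among genes on both sides of 0.

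The receptors that define the genotypes were examined next. The Pdgfra probe set ranged from 5.29 to 7.74 (median 6.96) in V544ins and from 4.53 to 9.41 (median 7.80) in EGFRvIII. Its difference of -0.50 ± 0.73 was below the spread of the arrays (adjusted p = 0.782). It was -1.48 ± 0.53 without EGFRvIII replicates 4, 5 and 6 (adjusted p = 0.224) and 0.04 with V544ins numbers 49 to 52 only. Pdgfra was lowest in V544ins replicates 1 and 2 (5.29 and 5.96) and in EGFRvIII replicates 5 and 4 (4.53 and 4.92). Egfr ranged from 4.34 to 5.98 (median 5.56) in V544ins and from 4.53 to 8.20 (median 5.85) in EGFRvIII, a difference of -0.75 ± 0.54 (adjusted p = 0.541). The 3 EGFRvIII arrays that stood apart had the highest Egfr, at 7.20, 8.20 and 6.89, and without them the difference was 0.08. Of 5 further Egfr probe sets, 3 had lower means in V544ins: 4.38 ± 0.59 in V544ins against 5.19 ± 1.45 in EGFRvIII, 5.07 ± 0.19 against 5.63 ± 0.26, and 3.09 ± 0.15 against 3.83 ± 0.40 (SD, n = 6 and 8). The remaining 2 differed by 0.04 and 0.02 near the bottom of the scale. The species and 3' end of the constructs are not given in the sources used here, so these probe sets do not check the transgenes.

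No ligand of either receptor that was tested passed. Tgfa, a ligand of EGFR, had medians of 10.03 in V544ins and 9.59 in EGFRvIII and differed by 0.77 ± 0.59 (adjusted p = 0.57). Hbegf, another EGFR ligand, had medians of 8.54 and 8.79 in V544ins and EGFRvIII (adjusted p = 0.54), and Errfi1, a feedback inhibitor of EGFR, had medians of 8.36 in V544ins and 8.90 in EGFRvIII (adjusted p = 0.349). Without EGFRvIII replicates 4, 5 and 6 the differences of Tgfa and Hbegf turned, to -0.18 and 0.22, and that of Errfi1 was -0.37. Pdgfb and Pdgfc, ligands of the PDGF receptors, differed by 0.04 and -0.30 (adjusted p = 0.977 and 0.709), and by 0.47 and 0.17 without those 3 arrays. Of 16 measured ERBB receptor and ligand genes 7 were tested and 0 called, and of 5 measured PDGF genes 3 were tested and 0 called.

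No gene of the 41 pathway and marker lists passed the test, and the Hox list had no member tested in the 14 arrays. With the 14 arrays limma called 0 of the 412 different list members tested, against 28 of all 10598 genes (0.264%). Without EGFRvIII replicates 4, 5 and 6 it called 0 of 399, against 16 of all 10512 (0.152%). With so small a share among all genes, 0 calls does not set the lists apart. When all 45 arrays supplied the estimate of spread, 31 of the 412 (7.52%) were called, against 465 of all 10598 genes (4.39%), 310 higher (2.93%) and 155 lower (1.46%). With the joint mean of the neuronal and myelin lists as a covariate, 5 of the 412 (1.21%) were called, against 59 of all genes (0.557%). These 5 were Insr, Cdkn2b and Ltbp1, lower in V544ins, and Ltbp4 and Tgfbr1, higher, with adjusted p-values of 0.0454 to 0.0488 in that fit. The lists are therefore described by values. The level of each list is its mean log2 signal per array over all measured members, and the count of members concerns those tested. In these bulk samples, fewer cells of a type and less RNA per cell cannot be told apart.

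Feedback genes of the ERK pathway had lower values in V544ins. Of 18 tested members 13 were lower, with a median difference of -0.44 against 0.02 over all tested genes, and 6 had an unadjusted p under 0.05. The list mean ranged from 7.72 to 8.17 (median 7.94) in V544ins and from 8.09 to 9.02 in EGFRvIII, so that the groups nearly separated. Spry4, a Sprouty-family inhibitor of receptor signalling, ranged from 6.85 to 8.29 (median 7.59) in V544ins and from 8.20 to 10.29 (median 8.85) in EGFRvIII. Its difference of -1.56 ± 0.32 had an adjusted p of 0.0521, and without EGFRvIII replicates 4, 5 and 6 it was -1.84. Only EGFRvIII replicate 4 lay within the V544ins range.

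Dusp4 and Dusp6, phosphatases that switch off ERK, had lower values as well. They are given because they were among the list members with the smallest p, and they do not stand for the other phosphatases. Dusp4 ranged from 4.86 to 5.46 in V544ins and from 5.72 to 9.37 in EGFRvIII, with no overlap, and its difference was -2.09 ± 0.49 (adjusted p = 0.0802). It was highest in EGFRvIII replicates 6 and 5, at 9.37 and 8.38, and the difference without replicates 4, 5 and 6 was -1.32. Dusp6 ranged from 9.62 to 10.26 in V544ins and from 10.16 to 11.45 in EGFRvIII, a difference of -0.89 ± 0.21 (adjusted p = 0.0871). Spred2, a Sprouty-related inhibitor, ranged from 8.37 to 8.70 in V544ins and from 8.74 to 9.49 in EGFRvIII, a difference of -0.60 ± 0.15 (adjusted p = 0.0915). With all 45 arrays estimating the spread, 5 of the 18 members fell and 0 rose, against 1.46% of all genes that fell in that fit, and without EGFRvIII replicates 4, 5 and 6 limma called 0. With V544ins restricted to numbers 49 to 52, 10 of the 18 members were higher and the median was 0.10, while the list mean of those 4 arrays was 7.89 to 8.17, against a mean of 8.57 in EGFRvIII.

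Immediate early genes, which respond quickly to such signalling, showed no common direction, with 5 of 11 tested members higher and 6 lower and a median of -0.07. Fos ranged from 10.01 to 11.02 in V544ins and from 8.04 to 10.55 in EGFRvIII (1.04 ± 0.34, adjusted p = 0.18), while Egr2 differed by -0.98 ± 0.39 (adjusted p = 0.271). In the insulin receptor and PI3K list, 8 of 15 members were lower and the median was -0.16. Insr, the insulin receptor, was confined to 7.71 to 7.92 in V544ins and ranged from 8.10 to 8.99 in EGFRvIII. Its difference of -0.74 ± 0.15 came with an adjusted p of 0.0521 and no overlap of groups. Igf1r, the related IGF receptor, differed by -0.89 ± 0.25 (adjusted p = 0.128), and Sesn1, a stress-induced inhibitor of mTORC1 signalling, by -0.76 ± 0.19 (adjusted p = 0.0943).

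Among the inhibitors of cyclin-dependent kinases, members lay on opposite sides. Cdkn1c, the imprinted inhibitor p57, ranged from 8.97 to 10.41 (median 9.64) in V544ins and from 3.83 to 9.44 (median 5.77) in EGFRvIII. Its difference of 3.66 ± 0.76, or 12.7-fold, had an adjusted p of 0.0521. EGFRvIII replicate 8, at 9.44, lay within the V544ins range, so the groups overlapped. Replicate 7 was at 8.29, and the other 6 were at or below 6.19. Cdkn2b, the inhibitor p15, ranged from 6.91 to 7.61 (median 7.51) in V544ins and from 7.89 to 10.99 (median 9.34) in EGFRvIII. Its groups did not overlap, and the difference of -2.07 ± 0.43 had the same adjusted p of 0.0521. Cdkn2a, which neighbours Cdkn2b on chromosome 4, ranged from 7.73 to 9.22 in V544ins and from 8.47 to 11.15 in EGFRvIII (-1.04 ± 0.40, adjusted p = 0.252), and its difference without EGFRvIII replicates 4, 5 and 6 was -0.58.

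The other kinase inhibitors, Cdkn1a, Cdkn1b, Cdkn2c and Cdkn2d, differed by -0.29, -0.11, 0.30 and 0.21, with adjusted p-values of 0.782, 0.843, 0.663 and 0.694. Without EGFRvIII replicates 4, 5 and 6, Cdkn1c differed by 2.74 (adjusted p = 0.134) and Cdkn2b by -1.49 (adjusted p = 0.0951). Proliferation genes were higher by value in V544ins, with 22 of 24 cell cycle members higher, a median of 0.40 and list means of 7.37 to 8.70 in V544ins and 5.88 to 8.29 in EGFRvIII. In limma 0 of the 24 passed, and 0 had an unadjusted p under 0.05. The list mean was 8.50 to 8.70 in V544ins numbers 61 and 62 and 7.37 to 8.19 in numbers 49 to 52. EGFRvIII replicate 7 gave the 5.88, and the other EGFRvIII arrays were at 7.46 to 8.29. With V544ins numbers 49 to 52 only, 17 of 24 were higher and the median was 0.14. Without EGFRvIII replicates 4, 5 and 6, 24 of 24 were higher and the median was 0.67. Among the MYC family, Mycn was near the top of the scale in both, at 12.03 to 13.26 in V544ins and 12.72 to 13.45 in EGFRvIII (-0.37 ± 0.20, adjusted p = 0.414).

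**Figure D4:**
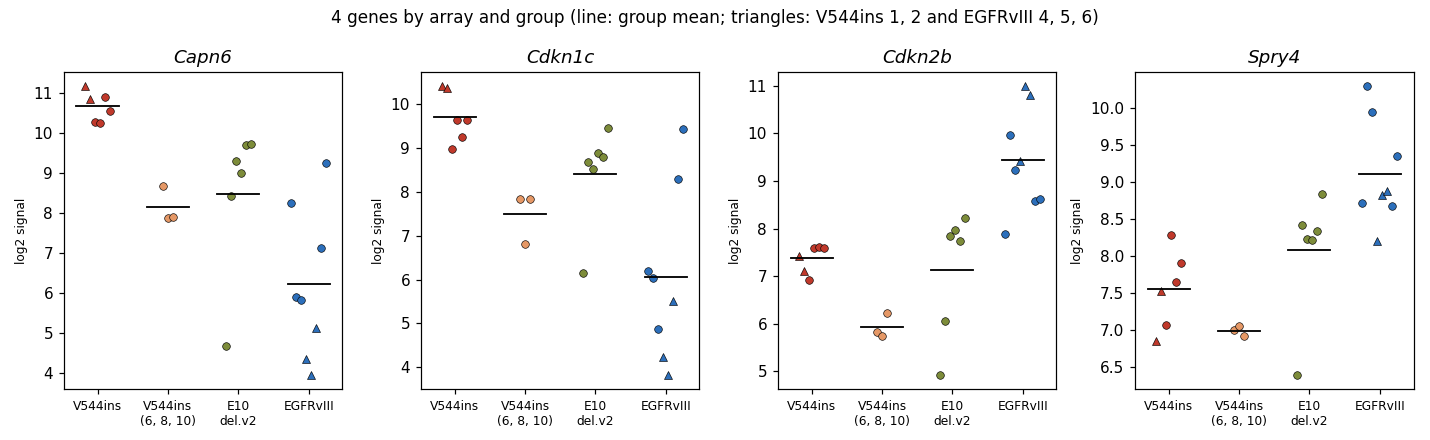
Log2 signal (y axes) of Capn6, Cdkn1c, Cdkn2b and Spry4 in the 6 V544ins arrays, the 3 V544ins arrays numbered 6, 8 and 10, the 6 E10 del.v2 arrays and the 8 EGFRvIII arrays, 1 point an array, with group means as lines and triangles for V544ins replicates 1 and 2 and EGFRvIII replicates 4, 5 and 6. Cdkn2b was at or below 8.23 in every V544ins and E10 del.v2 array, and 7 of the 8 EGFRvIII arrays lay above that.

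Growth factor and developmental pathway genes included large differences that did not pass. Ltbp1, which tethers latent TGF-beta to the matrix, ranged from 4.01 to 5.50 in V544ins and from 5.42 to 10.31 in EGFRvIII, with a difference of -3.07 ± 0.70 (adjusted p = 0.0765), and EGFRvIII replicates 4, 5 and 6 were the highest at 9.45, 10.31 and 9.44. Without them the Ltbp1 difference was -1.92. Ltbp4, a related matrix protein, differed by 0.80 ± 0.16 (adjusted p = 0.0521), with 6 to 6.65 in V544ins and 5.08 to 5.96 in EGFRvIII. Hmga2, an oncofetal chromatin protein, ranged from 6.28 to 8.36 in V544ins and from 7.43 to 12.10 in EGFRvIII (-2.42 ± 0.72, adjusted p = 0.147). In the Notch pathway, the ligand Jag1 and the target Hes1 differed by -1.23 and -1.06, and the target Hes5 by 1.78 (adjusted p = 0.141, 0.169 and 0.141). Bmp4, a bone morphogenetic protein, differed by 2.32 ± 0.75 (adjusted p = 0.182). Without EGFRvIII replicates 4, 5 and 6 the differences were -1.30 for Hmga2, -0.61 for Hes1, 1.12 for Hes5 and 1.31 for Bmp4. The 18 measured Hox genes all failed the filter on low values, with list means of 3.06 to 3.29 in V544ins and 3.13 to 3.57 in EGFRvIII.

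Genes of the oligodendrocyte lineage were higher by value in V544ins. Of 16 tested markers of myelinating oligodendrocytes 15 were higher, with a median difference of 1.29, and 8 had an unadjusted p under 0.05. Cnp, an enzyme of myelin, ranged from 9.92 to 11.25 (median 10.95) in V544ins and from 6.55 to 10.30 (median 8.58) in EGFRvIII, a difference of 2.16 ± 0.51 (adjusted p = 0.0802). Cldn11, the tight-junction protein of myelin, ranged from 10.87 to 11.37 in V544ins and from 6.4 to 10.70 in EGFRvIII (1.78 ± 0.52, adjusted p = 0.141), without overlap. Mag and Fa2h, a myelin adhesion protein and an enzyme of myelin lipids, each differed by 1.96 (adjusted p = 0.118 and 0.165). With all 45 arrays estimating the spread, 7 of the 16 rose and 0 fell, against 2.93% of all genes that rose in that fit. Without EGFRvIII replicates 4, 5 and 6 limma called 0 of the 16, the list median was 0.53, and Cldn11 and Fa2h differed by 1.05 and 1.16.

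The progenitor markers depended on the same arrays. Of 14 tested markers of oligodendrocyte progenitors 12 were higher in V544ins, with a median of 0.94, which was 0.09 without EGFRvIII replicates 4, 5 and 6. The list mean was 8.87 to 10.82 in V544ins, against 6.24 to 8.07 in those EGFRvIII arrays and 9.26 to 10.84 in the remaining 5. Gpr17, a receptor of differentiating progenitors, ranged from 10.67 to 12.16 in V544ins. Among the EGFRvIII arrays it was at 7.20, 5.27 and 6.08 in those 3 and at 10.29 to 12.33 elsewhere. Proneural glioma genes followed, with 14 of 16 higher, a median of 0.52, and 0.07 without those 3 arrays.

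Mesenchymal and macrophage genes ran the other way. Of 21 tested mesenchymal glioma effectors 16 were lower in V544ins, with a median of -0.34, against 0.31 without EGFRvIII replicates 4, 5 and 6. Met, the receptor of hepatocyte growth factor, was at 2.96 to 5.71 in V544ins, against 8.96, 9.88 and 9.15 in those 3 arrays and 4.03 to 5.42 in the remaining EGFRvIII arrays. Macrophage and monocyte markers had 8 of 10 tested members lower and a median of -1.07, against 0.19 without the 3 arrays. Arg1, an enzyme of arginine breakdown in macrophages, was at 7.13 in V544ins replicate 2 and at or below 3.67 in the other V544ins arrays. In EGFRvIII it was at 11.53, 10.97 and 7.93 in the 3 arrays and at 3.43 to 7.18 in the remaining 5. Whether macrophage content had a part in the differences above was not tested.

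Of 12 tested microglial markers 11 were higher in V544ins, with a median of 0.35, and 0.68 without EGFRvIII replicates 4, 5 and 6. Cx3cr1, the fractalkine receptor of microglia, ranged from 8.36 to 9.42 in V544ins and from 7.33 to 9.10 in EGFRvIII (0.69 ± 0.28, adjusted p = 0.269). Of 15 interferon response genes 14 were higher, with a median of 0.98, and 1.11 without the 3 arrays. Irf7, the interferon-induced regulator of antiviral genes, ranged from 7.07 to 8.98 (median 8.45) in V544ins and from 3.89 to 8.37 (median 6.34) in EGFRvIII (2.04 ± 0.60, adjusted p = 0.141). The groups overlapped for both genes, and the interferon list mean ranged from 7.65 to 9.52 in V544ins and from 5.73 to 9.72 in EGFRvIII.

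**Figure D5:**
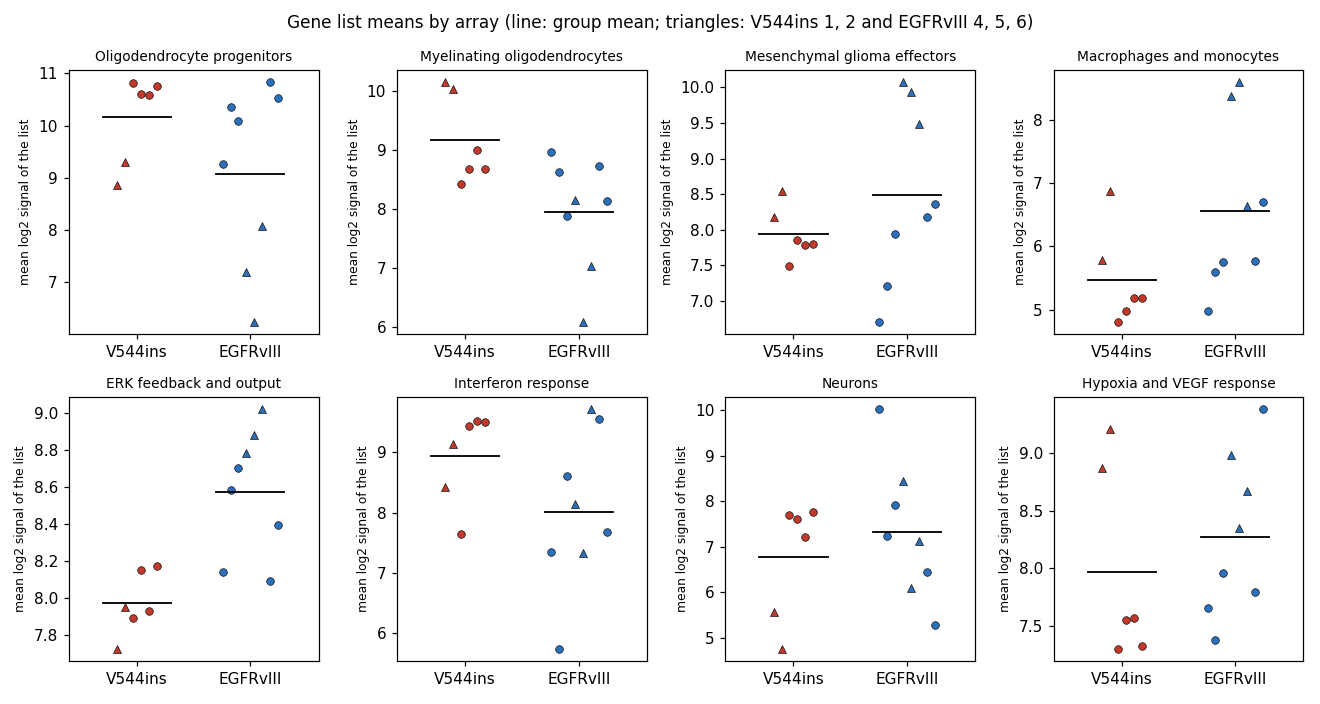
Mean log2 signal of 8 gene lists (y axes) in the 6 V544ins arrays (left of each panel) and the 8 EGFRvIII arrays (right), 1 point an array, with the group mean as a line and triangles for V544ins replicates 1 and 2 and EGFRvIII replicates 4, 5 and 6. The EGFRvIII triangles lie lowest for oligodendrocyte progenitors (6.24 to 8.07) and highest for mesenchymal effectors (9.49 to 10.08), and the V544ins triangles lie above the other V544ins arrays for hypoxia and myelin genes.

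The V544ins arrays themselves fell into those numbered 61 and 62 and those numbered 49 to 52. The hypoxia list mean was 8.87 and 9.21 in replicates 1 and 2, against 7.30 to 7.57 in the other 4, and the collagen list mean was 7.20 and 7.76 against 5.53 to 6.16. Myelin genes were also higher in the pair, at 10.15 and 10.03 against 8.42 to 9. Astrocyte genes, at 6.73 and 7.56 against 8.77 to 9.25, and neuronal genes, at 5.57 and 4.75 against 7.21 to 7.76, were lower. This split was seen in the data and has no test. Capn6, at 11.18 and 10.86 in the pair and at 10.26 to 10.92 in the other 4, was high in both.

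Neuronal markers, a measure of host brain in the sample, overlapped between the genotypes. The list mean ranged from 4.75 to 7.76 (median 7.41) in V544ins and from 5.29 to 10.03 in EGFRvIII, where replicate 1 was the highest. The median difference over 15 tested members was -0.61, and 0 had an unadjusted p under 0.05. Adjusting each gene for the joint mean of the neuronal and myelin lists left all 28 calls in place, among the 59 made in that fit. The median differences of these 2 lists had opposite signs, -0.61 and 1.29, so their joint mean does not measure host brain alone. The part of host brain in the calls was not tested. Grik3, a kainate receptor subunit, ranged from 8.22 to 9.16 in V544ins and from 3.06 to 8.21 in EGFRvIII, a difference of 2.83 ± 0.70 without overlap (adjusted p = 0.0913). Of the 13 tested glutamate receptor subunits, 7 were higher and 6 lower in V544ins. Without EGFRvIII replicates 4, 5 and 6, 11 of 13 were lower, with a median of -0.41, while Grik3 differed by 2.11 (adjusted p = 0.182). With V544ins numbers 49 to 52 only, 14 of 14 tested were higher.

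Sex-linked genes differed from array to array. Xist, the RNA of the inactive X chromosome, ranged from 9.81 to 11.72 (median 10.32) in V544ins and from 11.32 to 12.42 (median 11.87) in EGFRvIII, a difference of -1.22 ± 0.31 (adjusted p = 0.0943). The Y-linked gene Eif2s3y was at 3.12 in V544ins replicate 3 and at 6.55 to 9.02 in the other 5, while EGFRvIII replicates 3, 4 and 5 had 7.25 to 8.64 and the rest had 2.45 to 2.77. Kdm5d, also Y-linked, was high in the same arrays. Uty, the third Y-linked gene, ranged from 3 to 6.45 in V544ins and from 2.50 to 3.16 in EGFRvIII, and failed the filter on low values. Every one of the 14 arrays had an Xist signal of at least 9.81. The part of sex in the results was not tested.

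The 6 E10 del.v2 arrays, from another PDGFRA mutant in the same title range, were set against V544ins directly. Of 10453 genes tested, 1 (0.00957%) was called, and 1932 (18.5%) had an unadjusted p under 0.05. The called gene was Nol3, an inhibitor of apoptosis, with means of 7.51 in V544ins and 6.54 in E10 del.v2, a difference of 0.97 ± 0.12 (adjusted p = 0.0327). The call was lost when any 1 of the 6 V544ins arrays was left out. Of the 28 genes called against EGFRvIII, 27 were tested against E10 del.v2, all but Cpne8, and limma called 0 of them. Capn6 ranged from 4.66 to 9.73 in E10 del.v2, so all 6 V544ins arrays were higher, and Trpc4 ranged from 3.80 to 6.28, again below all V544ins arrays. Neither gene passed against E10 del.v2 (adjusted p = 0.198 for Capn6 and 0.107 for Trpc4). In the p53-null Pdgfra D842V arrays the Trpc4 mean was 7.81, above the V544ins mean of 7.27. The Capn6 mean there was 9.94, against 10.68 in V544ins. In the remaining PDGFRA groups of the series both means were below those of V544ins. Cpne8, at 4.60 to 5.67 in E10 del.v2, overlapped V544ins. Both comparisons share the 6 V544ins arrays.

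Within the V544ins genotype the arrays numbered 49 to 62 differed widely from the 3 numbered 6, 8 and 10. Of 10949 genes tested, 3960 (36.2%) were called, 2237 higher (20.4%) and 1723 lower (15.7%) in the 6 arrays, and 5117 (46.7%) had an unadjusted p under 0.05. The largest falls were those of the interneuron peptide Sst, of Caln1, of the synaptic exchange factor Kalrn, of Cracdl and of Strip2, with Sst means of 4.51 in the 6 arrays and 10.13 in the 3. The largest rises were those of the cohesin acetyltransferase Esco2 (2.65), the mitotic cyclin Ccnb2 (2.53), Capn6 (2.52), the mitotic kinesin Kif20b (2.50) and Tmprss5 (2.41). With the joint mean of the neuronal and myelin lists as a covariate the number of calls was 204. Of the 28 genes called against EGFRvIII, 20 also differed between these V544ins arrays, which share the 6 arrays with the comparison. Counted separately, 20 of the 28 had a mean in numbers 6, 8 and 10 on the same side of EGFRvIII as in the 6 arrays. The E10 del.v2 mean was on that side for 28 of 28, and the mean of the p53-null Pdgfra E7 del arrays for 27. The 28 genes were chosen by their distance from the same EGFRvIII arrays, which favours agreement in each of these counts. The share over all tested genes is not given here, so no conclusion is drawn from the counts. With all 9 V544ins arrays against EGFRvIII, limma called 0 genes, with 1460 at an unadjusted p under 0.05. For E10 del.v2, the 6 arrays were also set against the 3 arrays of that genotype numbered 23 to 25. There limma called 0 of about 10800 genes tested. The cause of the wide difference within V544ins was not tested.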

How the data were processed

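The 14 arrays of the comparison, and the further arrays named in the report, were read from one table of log2 expression values that the authors deposited, 1 column an array; the values were made by RMA, per the submitters' processing notes. RMA corrects background, normalizes the arrays to one distribution and summarises probes, which removes overall level differences between arrays. The array build is not given in the sources used here. Of 45141 probe sets, 28898 were paired with 1 gene symbol by the platform annotation, 551 with several and 15692 with none. A gene with several probe sets was represented by the one that was brightest on average across the 45 arrays, giving 17097 genes. Testing required a signal over 4.79, the median of the table, on 6 or more arrays. A gene could pass this filter through 1 group alone. For C2, Trpc4 and Bche the EGFRvIII median was below the limit and the V544ins arrays sufficed. For Cpne8 the V544ins median was below it and the EGFRvIII arrays sufficed. The design was genotype alone, fitted with lmFit and eBayes in limma 3.58.1 (R 4.3.3), with Benjamini-Hochberg adjustment over all genes tested and a call at an adjusted p under 0.05. The procedure was tested on simulated data. The number of arrays limits the precision.

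Genes were named by a rule: up to 15 called genes per direction, taken by size of difference, apart from predicted, clone and RIKEN genes, the 5 largest in each direction for comparisons with other groups, Pdgfra, Egfr and the sex-linked genes, and up to 4 members of each list by smallest p, or all members of lists of at most 12. The rule passed over Amotl2, Agpat1, Ehmt2, Pcbp4 and the clone genes, and the genes of the chromosome 17 stretch; these were named after their values were seen. The members and the lists were chosen with earlier results of these data known. Of 607 list symbols 545 were measured. Promoter sequences and gene order came from RefSeq (GRCm38.p6). The level of the p53 gene was not analysed here. Alternatives were other filters, probe set rules, normalizations, variance models, covariates and sets of arrays, with each array left out in turn.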

Additional observations from a re-analysis of the deposited data

Results flagged for a closer look

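For the named genes and list means, the highest and lowest array of each group was set against the others, and 7 of 150 groups of arrays (4.67%) held 1 array beyond Dixon's limit, where chance gives about 5%. Pisd-ps3 in V544ins replicate 4 was at 9.06, below 9.83 to 10.15 in the other V544ins arrays. Map10 in V544ins replicate 2 was at 5.87, above 5.06 to 5.36 in the others. Vps52 in V544ins replicate 2 was at 5.78, below 6.4 to 6.68 in the others, and this array alone made the groups overlap for Vps52. 2700081O15Rik in EGFRvIII replicate 8 was at 6.98, above 5.55 to 6.20 in the other EGFRvIII arrays. The cell cycle list mean in EGFRvIII replicate 7 was 5.88, below 7.46 to 8.29 in the others, so that this array had the lowest proliferation signal of the 14. In EGFRvIII replicate 6 the insulin receptor and PI3K list mean was 8.30, above 7.86 to 8.07 in the others, and the neural stem and progenitor list mean was 8.13, above 6.68 to 7.34.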

How the results depend on the processing

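No paired analysis was possible because the labels give no replicate numbers shared between the genotypes. Against EGFRvIII, the 28 calls became 57 with the mean of a gene's probe sets, 17 with trended and robust eBayes, 897 with array weights, 75 with 24 arrays and 465 with all 45 arrays in the fit, 59 with the joint mean of the neuronal and myelin lists as a covariate, 16 without EGFRvIII replicates 4, 5 and 6, 0 with all 9 V544ins arrays (1460 at an unadjusted p under 0.05) and 0 with limma's test of a minimum 2-fold difference (60 unadjusted). They were 39 without a filter, 30 with a looser one, 31 with quantile normalization, 19 with arrays centred and 33 with V544ins numbers 49 to 52 only, of which 9 were among the 28. An alternative chosen after seeing the data, V544ins numbers 49 to 52 against EGFRvIII without replicates 4, 5 and 6, gave 128, with 12 of the 28. Leaving out 1 array gave 0 to 91 calls: 6, 44, 5, 0, 0 and 0 without V544ins replicates 1 to 6, and 50, 36, 0, 15, 10, 8, 87 and 91 without EGFRvIII replicates 1 to 8. None of the 28 genes changed direction in an alternative that tested it; Map10 and Ntng2 were not tested in 1 of 15. Against E10 del.v2, the 1 call became 2 without a filter and 0 with the mean of probe sets (1768 unadjusted), with 45 arrays (2013) or with that covariate (1034), and 0 to 1 when 1 array was left out. Against V544ins numbers 6, 8 and 10, the 3960 calls became 204 with that covariate, and 2403 to 3880 when 1 array was left out, the lowest without lower-numbered replicates 2 (2403) and 1 (2563). List medians moved by more than the spread between arrays in 8 of 40 lists without EGFRvIII replicates 4, 5 and 6, in 2 with V544ins numbers 49 to 52 only and in 0 with that covariate. The cause was not tested for any of these. The number of arrays, 6 and 8, limits the precision.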

Other observations

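Other lists held values not described above. Cholesterol and fatty acid synthesis genes had 13 of 15 tested members higher in V544ins, with a median of 0.19, and 0 were called by limma (2 at an unadjusted p under 0.05). The direction did not hold without EGFRvIII replicates 4, 5 and 6, where 5 of 15 were higher and the median was -0.06. With V544ins numbers 49 to 52 only, 6 of 15 were higher and the median was -0.07. Fasn, the fatty acid synthase, ranged from 9.62 to 10.39 in V544ins and from 9.16 to 10.11 in EGFRvIII (0.45 ± 0.17, adjusted p = 0.238), and differed by 0.27 without EGFRvIII replicates 4, 5 and 6. Chemokines, cytokines and acute phase genes had 14 of 18 tested members lower, with a median of -0.70, and -0.06 without EGFRvIII replicates 4, 5 and 6. Saa3, an acute phase protein, ranged from 3.16 to 5.29 in V544ins and from 3.55 to 10.49 in EGFRvIII (-2.53 ± 0.99, adjusted p = 0.26). Endothelial markers had 9 of 12 lower, with a median of -0.34, and 0.02 without the same 3 arrays. Imprinted growth genes other than Cdkn1c were variable: Dlk1, a fetal growth regulator, had a highest value of 9.46 in V544ins beside a median of 4.86, against 3.98 to 5.09 in EGFRvIII.

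Outside chromosome 17, single arrays had shifted chromosome medians. The chromosome 19 median was -0.45 in V544ins replicate 4 and -0.42 in EGFRvIII replicate 1, and the chromosome 15 median was 0.44 in EGFRvIII replicate 5, 0.28 in replicate 4 and 0.27 in replicate 8, on the log2 scale relative to the 14 arrays. The chromosome X genes tested had 7.20% at an unadjusted p under 0.01 and a median difference of 0.09.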
